A study of Rattus norvegicus with 6 samples.

Results

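The genes described here encode the nuclear subunits of the mitochondrial respiratory chain. They were chosen by symbol alone, as every gene on the array whose name begins with Nduf followed by a, b, c, s or v and a digit, is Sdha, Sdhb, Sdhc or Sdhd, or begins with Uqcr, with Cox and a digit from 4 to 8, or with Atp5. Of the 14217 genes with a probe set of their own, 79 met the rule. They comprised 35 genes of complex I, 4 of complex II, 7 of complex III, 17 of complex IV and 16 of complex V. No expression value entered the choice, apart from the rule that a gene with several probe sets is represented by the one with the highest mean over the 6 arrays.

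Expression was measured in dissociated spinal cord cultures from newborn rats, taken at postnatal days 1 to 4 and labelled Sprague-Dawley in the sample records, while the methods of the study name Wistar rats. Control cultures (n = 3) grew on glass coverslips coated with polyornithine, and CNT cultures (n = 3) grew on coverslips layered with multiwalled carbon nanotubes. Both received nerve growth factor and horse serum and were kept for 8 days in vitro. Each group came from 3 culture series, with 1 Affymetrix rat expression array per culture, and the arrays carry the deposited log2 expression values (RMA). The comparison asks whether growth on nanotubes, an electrically conductive support, went with another level of the mRNAs for the chain. The cultures are mixtures of cells, so a different share of a cell type and a different amount of mRNA per cell cannot be told apart.

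The respiratory chain lies in the inner mitochondrial membrane. Complex I (NADH dehydrogenase) and complex II (succinate dehydrogenase) pass electrons to coenzyme Q, complex III (cytochrome bc1) passes them on to cytochrome c, and complex IV (cytochrome c oxidase) gives them to oxygen. Complexes I, III and IV pump protons, and complex V, the ATP synthase, uses the gradient to make ATP. Neurons depend strongly on this route, since ion pumping and synaptic transmission consume most of their ATP. The symbol rule also takes in a few genes that are no ordinary subunits: Atp5if1 encodes an inhibitor of the ATP synthase, Cox7a2l a factor that joins complexes into supercomplexes, and Cox6c-ps1 is annotated as a pseudogene. Ndufa4, named as a complex I gene, is now regarded as a complex IV subunit.

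Promoters of these genes are known for sites of the nuclear respiratory factors, and the sequences upstream of the members were searched for them. RefSeq promoters (build GRCr8, 250 bases before to 50 after the annotated start) matched 71 of the 79 genes by gene identifier. A set of short motifs was searched on both strands in each window, with the first listed start taken for a gene with several, and matches of different motifs were counted separately even where they overlapped. The NRF1 motif GCGCANGCG stood in 17 of the 71 promoters (23.9%), against 6.26% of all 27457 rat promoters in the table. GABPA, also called NRF2, was searched as CCGGAAG and matched 20 (28.2%, against 9.22%), and the YY1 motif ANATGGCG matched 18 (25.4%, against 4.62%). At least one of these 3 motifs stood in 44 of the members' promoters (62%) and in 17.3% of all. The ERRA motif TNAAGGTCA was rare (4.23%, against 1.15%), the SP1 motif GGGCGG common (43.7%, against 34.9%), and TATAAA less frequent than over all promoters (11.3%, against 14.3%). These are matches of letters, not measured binding. A few upstream sequences are shown 5′ to 3′ on the strand of the gene, each the 250 bases before the start, with matches of NRF1, GABPA and TATAAA in capitals. Ndufa6 (chr7:115750318-115750567, minus strand) is shown because it holds both an NRF1 and a GABPA match, and Ndufa12 (chr7:30658066-30658315, plus strand) because it is one of the few members whose groups did not overlap. Cox8a (chr1:213833624-213833873, minus strand) and Cox8b (chr1:205408274-205408523, minus strand) are the ubiquitous and the muscle form of the same complex IV subunit.
Ndufa6: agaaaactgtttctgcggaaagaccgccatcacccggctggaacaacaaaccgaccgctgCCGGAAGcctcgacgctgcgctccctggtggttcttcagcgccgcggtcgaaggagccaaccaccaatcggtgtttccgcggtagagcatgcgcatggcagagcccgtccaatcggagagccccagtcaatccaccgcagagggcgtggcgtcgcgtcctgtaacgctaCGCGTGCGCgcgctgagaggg
Ndufa12: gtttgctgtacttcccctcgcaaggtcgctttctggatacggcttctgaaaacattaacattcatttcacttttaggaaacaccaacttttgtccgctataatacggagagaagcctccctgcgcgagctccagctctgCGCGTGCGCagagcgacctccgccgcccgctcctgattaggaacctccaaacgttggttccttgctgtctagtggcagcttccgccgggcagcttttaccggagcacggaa
Cox8a: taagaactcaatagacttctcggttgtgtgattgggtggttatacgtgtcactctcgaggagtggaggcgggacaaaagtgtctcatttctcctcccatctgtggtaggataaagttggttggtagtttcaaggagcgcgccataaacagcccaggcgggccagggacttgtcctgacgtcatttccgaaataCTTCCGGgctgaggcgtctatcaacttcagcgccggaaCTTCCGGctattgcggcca
Cox8b: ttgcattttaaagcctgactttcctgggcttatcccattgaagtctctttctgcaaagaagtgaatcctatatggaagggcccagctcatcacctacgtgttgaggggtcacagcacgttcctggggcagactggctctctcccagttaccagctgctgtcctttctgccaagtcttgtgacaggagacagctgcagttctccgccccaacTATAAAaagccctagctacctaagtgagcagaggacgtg
Cox8a held a pair of GABPA matches close to its start and no TATAAA, whereas Cox8b held a TATAAA and neither an NRF1 nor a GABPA match. The median log2 difference between CNT and control cultures was 0.028 for the 44 members with NRF1, GABPA or YY1 and 0.051 for the 27 without. For YY1 alone the medians were 0.082 with and 0.029 without, and for NRF1 0.018 and 0.054.

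None of the 79 genes differed between CNT and control cultures after adjustment over all genes. Limma called no gene of the array in either direction at an adjusted p of 0.05 (0% higher and 0% lower). Without adjustment 2.41% of all genes lay under a p of 0.05 and higher in CNT cultures, and 0.71% lay lower. No member did, and the smallest p among them was that of Cox8b, 0.0896. The rank product, which is the test the study used, called 73 genes of the array higher (0.513%) and 5 lower (0.0352%) when it was written out here with p-values adjusted over all genes, and none of them was a member.

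The differences were also small in size. The median log2 fold change of the members was 0.044 (all genes 0.03), and the values ran from −0.08 for Sdhc to 0.76 for Cox5a. The median size regardless of direction was 0.055, against 0.101 over all genes, and 3 members exceeded 0.2. The members varied little between cultures of a group, with a median SD of 0.107 against 0.193 over all genes. The 95% interval of the difference lay within 1.5-fold either way for 73 of the 79 (92.4%), and for 63.6% of all genes. The 6 exceptions were Ndufa4l2, Cox4i2, Cox5a, Cox6a2, Cox6b2 and Atp5if1. Most members gave signals near the top of the scale: 61 had a mean above 12, and 60 of these had an interval within 1.5-fold, compared with 76% of the 1724 genes of the array at that signal. The median log2 fold change of these 61 members was 0.047, against −0.007 for the 1724 genes. Their median size regardless of direction was 0.052 against 0.077, and their median SD was 0.101 against 0.148. Whether the scale compresses differences there was not tested.

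**Figure D1:**
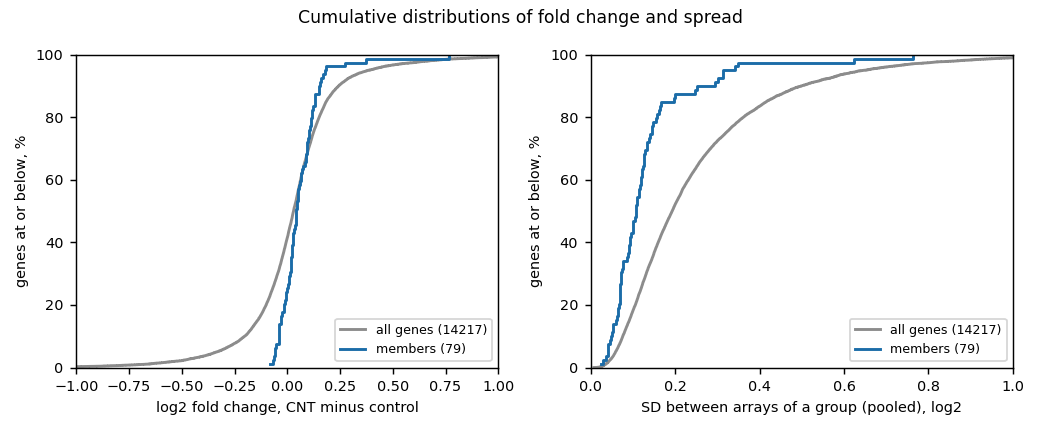
Share of genes (%) at or below each value, for the 79 respiratory chain genes (blue) and all 14217 genes (grey). On the left is the log2 fold change, CNT minus control, which spans −0.08 to 0.76 for the chain genes; on the right is the SD between the 3 arrays of a group, pooled over both groups, with medians of 0.107 and 0.193.

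The log2 fold change was positive for 59 members (74.7%, against 58.5% of all genes) and negative for 20, at differences that did not pass the test. Among genes with a mean above 12, it was positive for 78.7% of the 61 members and 47.6% of the 1724 genes. In 4 members all 3 CNT cultures lay above all 3 control cultures, namely Ndufa12, Uqcr10, Cox6a1 and Cox8b. They were 5.06% of the members, beside 5.94% of all genes, so this count is no higher than that of the array. In no member did all CNT cultures lie below the controls, beside 2.05% of all genes.

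**Figure D2:**
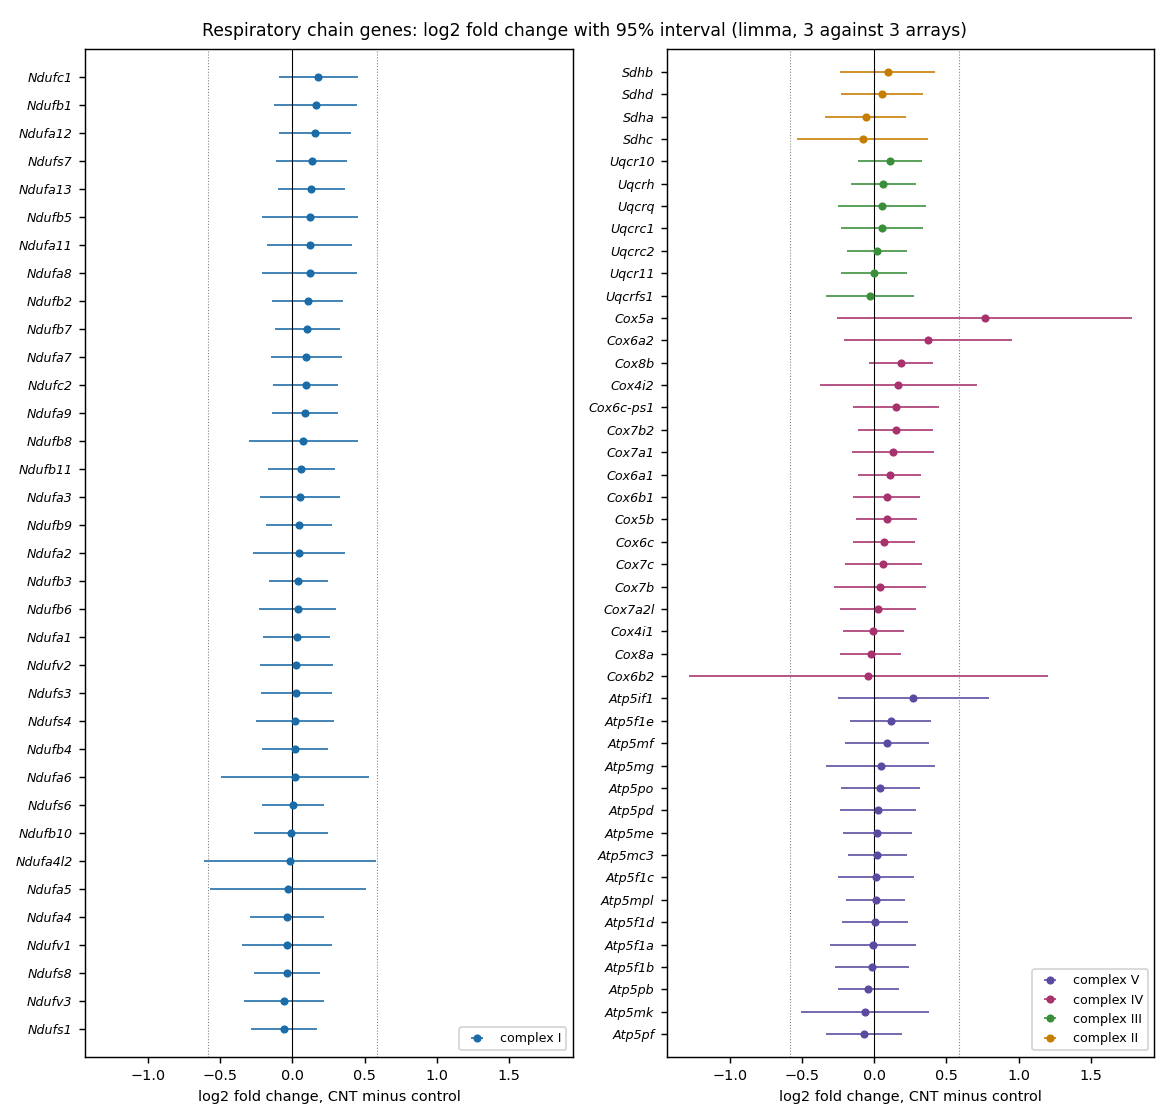
Log2 fold change (CNT minus control) of each of the 79 genes with its 95% interval from limma, complex I on the left and complexes II to V on the right. Every interval includes 0, and dotted lines mark a change of 1.5-fold either way.

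Complex I is the largest of the complexes and the entry point for electrons from NADH. The 35 genes that carry its names had a median log2 fold change of 0.047, with 27 positive and 8 negative, and ranged from −0.06 for Ndufs1 to 0.18 for Ndufc1. The core subunits, which carry the flavin and the iron-sulfur clusters, had a median of −0.006 over the 6 that were measured. The other 29 genes, most of them accessory subunits that surround the core and Ndufa4 and Ndufa4l2 among them, had a median of 0.051.

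Ndufc1, a small accessory subunit of the membrane arm, read 12.21, 12.30 and 12.33 in control cultures and 12.50, 12.29 and 12.59 in CNT cultures. Its CNT 2 culture lay among the controls and the other CNT cultures lay above them, for a log2 fold change of 0.18 (SE 0.11). Ndufa12, an accessory subunit of the matrix arm, read 12.69, 12.66 and 12.77 in controls and 12.78, 12.80 and 13.00 in CNT cultures. Although these groups did not overlap, the lowest CNT value and the highest control value were nearly equal, and the log2 fold change was 0.16 (SE 0.10). Ndufa13, an accessory subunit also studied as a partner of STAT3, read 12.95, 13.09 and 13.06 in controls and 13.17, 13.09 and 13.24 in CNT cultures. Here CNT 2 again fell among the controls (log2 fold change 0.13, SE 0.09). Ndufs1, the largest of the core iron-sulfur subunits, had the lowest value of the complex, at 11.64, 11.68 and 11.73 in controls and 11.61, 11.72 and 11.55 in CNT cultures. These groups overlapped, and the log2 fold change was −0.06 (SE 0.09).

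Among the complex I names is a pair of related genes, Ndufa4 and Ndufa4l2, the second of which is known as a target of hypoxia-inducible factor. Ndufa4 read 13.49, 13.57 and 13.48 in controls and 13.55, 13.32 and 13.56 in CNT cultures, with a log2 fold change of −0.04 (SE 0.11). Ndufa4l2 read 8.0045, 8.09 and 7.29 in controls and 8.04, 7.70 and 7.59 in CNT cultures, with a log2 fold change of −0.02 (SE 0.24). For both genes the values of the groups were interleaved, and the sign of the difference turned under several other settings.

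Complex II, which is also an enzyme of the tricarboxylic acid cycle, was measured in full. Its median log2 fold change was −0.004, with 2 genes on each side of 0. Sdha, the flavoprotein that oxidises succinate, read 11.73, 11.83 and 11.74 in controls and 11.71, 11.87 and 11.54 in CNT cultures (log2 fold change −0.06, SE 0.12). Sdhb, the iron-sulfur subunit, read 12.73, 13.12 and 13.05 in controls and 13.16, 13.07 and 12.95 in CNT cultures (0.09, SE 0.13). The catalytic pair therefore differed from control by no more than the spread of the arrays, and control 1 was the lowest array for Sdhb. Sdhc, a membrane anchor, read 12.53, 13.02 and 12.67 in controls and 12.95, 12.54 and 12.48 in CNT cultures (−0.08, SE 0.19). Sdhd, the other anchor, read 12.56, 12.67 and 12.77 in controls and 12.85, 12.56 and 12.74 in CNT cultures (0.05, SE 0.12). Both anchors had control and CNT cultures interleaved, and leaving out single arrays moved each of the 4 Sdh genes across 0.

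Complex III had a median log2 fold change of 0.052 over 7 genes, of which 5 were positive. Uqcr10, one of its small subunits, was the tightest member among the controls, at 13.53, 13.54 and 13.53, and read 13.71, 13.55 and 13.67 in CNT cultures. All CNT values lay above the controls, CNT 2 only just, and the log2 fold change was 0.11 (SE 0.09). Uqcrh, the hinge protein between cytochromes c1 and c, read 13.26, 13.07 and 13.19 in controls and 13.21, 13.23 and 13.27 in CNT cultures (0.06, SE 0.09). Uqcrc1, a core protein of the matrix side, read 12.74, 12.79 and 12.59 in controls and 12.78, 12.89 and 12.60 in CNT cultures (0.05, SE 0.12). Control 3 and CNT 3 were the lowest arrays of their groups for Uqcrc1. Uqcrfs1, the Rieske iron-sulfur protein, had the lowest value of the complex, with 13.05, 13.39 and 13.29 in controls and 13.33, 13.17 and 13.13 in CNT cultures (−0.03, SE 0.13).

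Complex IV had the highest median of the complexes, 0.087 over 17 genes, with 14 positive. It is also the complex in which several subunits exist in tissue forms, and the 2 members with the highest log2 fold change belong to it. Of all members, 9 had a mean below 10, and all of these but Ndufa4l2 carry complex IV names. The median of these 9 dim members was 0.151, with 7 positive, against 0.047 for the 61 members with a mean above 12. Cox5a, a subunit on the matrix side, read 9.22, 10.18 and 9.16 in controls and 10.95, 10.31 and 9.60 in CNT cultures. CNT 1 and CNT 2 lay above every control, but CNT 3 lay below control 2, and the log2 fold change of 0.76 had an SE of 0.42. It was 0.43 without CNT 1 and 1.11 without CNT 3. A second probe set for Cox5a, which is annotated to a further locus as well and was therefore not used in the test, read 13.57, 13.63 and 13.64 in controls and 13.66, 13.74 and 13.71 in CNT cultures. Its groups did not overlap, yet its difference was 0.088, so that both probe sets were higher in CNT cultures while the sizes differed widely. Cox5b, encoding another matrix-side subunit, had a log2 fold change of 0.09 (95% interval −0.13 to 0.30).

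The isoform genes of complex IV were compared form by form, each within its own probe set. Cox4i1, the general form of a regulatory subunit, read 13.82, 13.88 and 13.86 in controls and 13.89, 13.79 and 13.84 in CNT cultures (−0.01, SE 0.09). Cox4i2, its oxygen-regulated form, read 6.58, 6.77 and 6.28 in controls and 7.05, 6.76 and 6.32 in CNT cultures (0.17, SE 0.22). For this gene replicate 3 was the lowest in both groups. Cox6a1, the general form, read 13.58, 13.68 and 13.69 in controls and 13.80, 13.72 and 13.75 in CNT cultures, without overlap (0.11, SE 0.09). Cox6a2, the heart and skeletal muscle form, read 6.46, 6.98 and 6.71 in controls and 7.54, 6.76 and 6.96 in CNT cultures (0.37, SE 0.24). CNT 1 alone stood above the control range for Cox6a2, and without it the log2 fold change was 0.14. Cox6b1, the general form, read 13.35, 13.50 and 13.40 in controls and 13.59, 13.48 and 13.45 in CNT cultures (0.09, SE 0.10). Cox6b2, the testis form, read 8.78, 8.53 and 8.52 in controls and 8.29, 7.67 and 9.75 in CNT cultures. Its CNT cultures lay on both sides of the controls, and its log2 fold change of −0.04 had the largest SE of all members, 0.51.

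Cox7a1, the muscle form of subunit VIIa, read 8.02, 7.92 and 7.69 in controls and 8.04, 8.03 and 7.94 in CNT cultures (0.13, SE 0.12). Cox7a2l, the supercomplex factor related to it, read 13.02, 13.10 and 13.12 in controls and 13.11, 12.96 and 13.25 in CNT cultures (0.03, SE 0.11). Cox8a, the general form of subunit VIII, read 13.77, 13.85 and 13.80 in controls and 13.80, 13.73 and 13.82 in CNT cultures (−0.02, SE 0.09). The groups of these 3 genes overlapped. Cox8b, the muscle form whose promoter carries the TATAAA shown above, read 6.02, 6.11 and 6.06 in controls and 6.16, 6.32 and 6.26 in CNT cultures, without overlap (0.18, SE 0.09). The muscle forms Cox6a2, Cox7a1 and Cox8b thus all had a positive fold change that did not pass the test. Beside them, a list of 10 skeletal muscle genes had a median log2 fold change of 0.019, with 6 positive and 4 negative. Its mean deviation per array was 0.286, −0.123 and 0.044 in controls and −0.053, −0.174 and 0.021 in CNT cultures. Within that list Ckm, the muscle creatine kinase, was higher without overlap (0.14, SE 0.09), but control 2 and CNT 1 both read 5.98 after rounding. Myl1, a myosin light chain, was lower without overlap (−0.48, SE 0.23), but control 2 read 5.23 and CNT 2 read 5.22. Acta1, skeletal actin, had the lowest fold change (−0.88, SE 0.48). Of all genes, 5.94% were higher and 2.05% lower without overlap. Whether muscle cells had a part in the values of these isoforms was not tested.

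**Figure D3:**
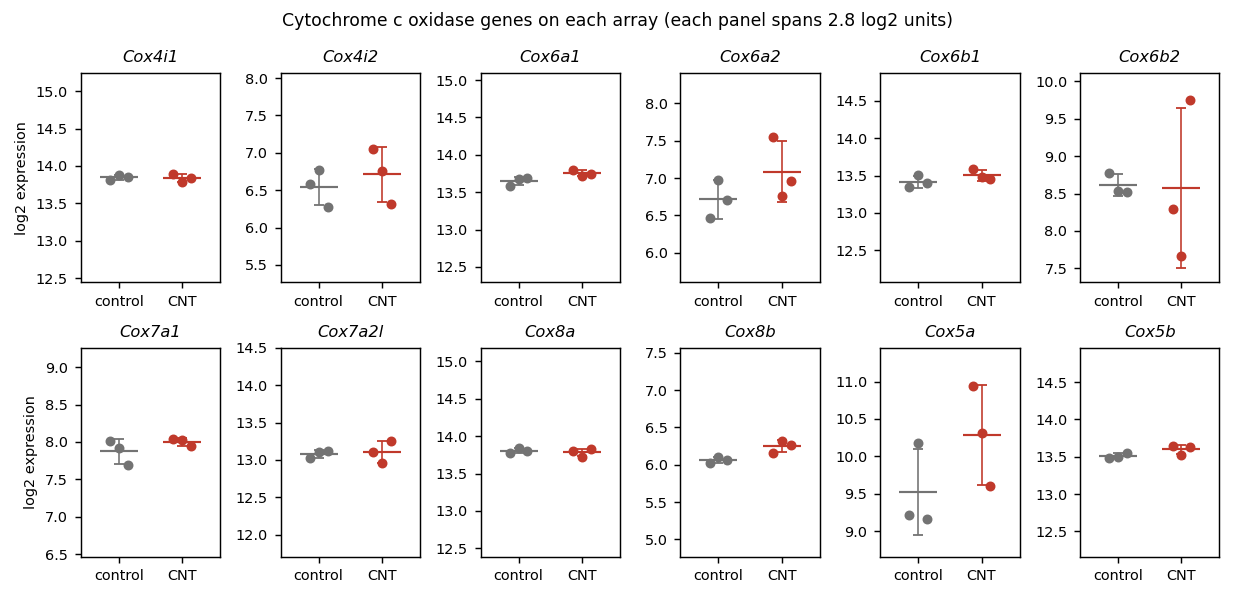
Log2 expression of 12 cytochrome c oxidase genes on each array, with 3 control (grey) and 3 CNT (red) cultures, the line at the group mean and bars of 1 SD. Each panel spans the same 2.8 log2 units around its own gene; Cox5a and Cox6b2 spread widely, whereas Cox4i1, Cox6a1 and Cox8a lie within narrow bands, and levels of different panels are not comparable because the probe sets differ.

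Complex V had a median log2 fold change of 0.017 over 16 genes, 11 of them positive. The catalytic head (F1), in which ATP is made, had a median of 0.008 over its 5 genes, and the genes outside it had a median of 0.022 over 11. Atp5f1e, the epsilon subunit of the stalk of F1, read 13.13, 12.97 and 13.08 in controls and 13.13, 13.04 and 13.34 in CNT cultures (0.11, SE 0.11). Atp5mf, a membrane subunit, read 13.38, 13.17 and 13.39 in controls and 13.39, 13.27 and 13.55 in CNT cultures (0.09, SE 0.12). For both genes CNT 3 was the highest array and control 2 the lowest. Atp5mc3, which encodes the c subunit of the rotating ring, read 13.93, 13.90 and 13.87 in controls and 13.90, 13.92 and 13.94 in CNT cultures (0.02, SE 0.08). Atp5pf, a coupling factor of the peripheral stalk, read 12.86, 12.96 and 13.00 in controls and 12.89, 12.72 and 12.98 in CNT cultures, the lowest fold change of the complex (−0.07, SE 0.11).

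Atp5if1, which inhibits ATP hydrolysis by the synthase when respiration fails, had the highest fold change of the complex V names. It read 12.55, 12.18 and 12.89 in controls and 12.60, 12.77 and 13.07 in CNT cultures (0.27, SE 0.22). The lowest value was that of control 2 and the highest that of CNT 3, with the other arrays interleaved. Leaving out control 2 gave a log2 fold change of 0.09, leaving out CNT 3 gave 0.14, and leaving out control 3 gave 0.45. It is the one member with 3 probe sets, and these gave log2 fold changes of 0.27, 0.31 and 0.29. Their control means were 12.54, 7.30 and 5.79, so those not used in the test were far dimmer. The other 7 members with more than 1 probe set had 2 each. Those of Uqcrc2, Atp5me, Ndufa7 and Ndufa9 differed in sign between the pair, and all groups overlapped. The probe set not used in the test had control means of 9.36, 7.60, 8.71 and 6.15 in these genes, each below that of the one used.

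A further 7 probe sets report a chain gene together with a copy of it and cannot be given to one gene, so they were left out of the counts. They add Atp5mc1 (difference of group means 0.096), Cox7a2 (0.073), Atp5mc2 (−0.125), Uqcrb (0.12), Ndufs5 (0.059) and Ndufa10 (0.006) to the Cox5a probe set above. Each of these differences concerns the sum of a gene and its copy. In RefSeq 109 protein-coding symbols met the rule, and 31 of them were not analysed here as single genes.

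The members did not move as 1 block across arrays, and the CNT cultures lay on both sides of the controls. Each member was set to 0 at its mean over the 6 arrays, and the deviations were averaged over the members. This average was −0.040, −0.006 and −0.046 in control cultures and 0.076, −0.049 and 0.065 in CNT cultures. Thus CNT 1 and CNT 3 lay above every control, and CNT 2 lay beside the lowest controls. CNT 3 was the highest array for 33 of the 79 members (41.8%, against 20.3% of all genes) and CNT 1 for 23 (29.1%, against 14.7%). CNT 2 was the lowest array for 22 (27.8%, against 14.2%). Among genes with a mean above 12 the shares for CNT 2 lay closer together, at 27.9% of the 61 members and 24.3% of the 1724 genes. At that signal CNT 3 was highest for 47.5% of the members and 20.7% of the genes. Among the lists described below, CNT 3 was highest for 56.8% of the assembly factors and 43.8% of the mitochondrial ribosome genes. Its share ran from 5.26% to 28.6% in the lists for electron carriers, biogenesis, tricarboxylic acid cycle, glycolysis and mitochondrial carriers.

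The complexes did not all follow a common pattern over the arrays. In complex IV, CNT 1 was the highest array for 11 of 17 genes, with a mean deviation of 0.168, and control 1 and control 3 lay at −0.114 and −0.111. In complex II the lowest array was control 1 (−0.147), and CNT 1 (0.132) and CNT 3 (−0.108) lay on opposite sides of 0. Complexes I and V were alike in the CNT cultures, at 0.054, −0.055 and 0.078 in complex I and 0.027, −0.069 and 0.086 in complex V. Of the 29 genes with complex I names outside the core, 18 were highest in CNT 3 and none lowest there. Of the 6 core genes, 1 was highest and 3 were lowest in CNT 3. Several genes of complexes I and V shared a low value in CNT 2: Ndufa6, an accessory subunit of the matrix arm, read 12.33, 12.27 and 12.43 in controls and 12.58, 11.89 and 12.62 in CNT cultures. Ndufa5 read 11.02, 11.11 and 11.17 in controls and 11.20, 10.58 and 11.42 in CNT cultures. Atp5mk read 13.40, 13.28 and 13.22 in controls and 13.34, 12.87 and 13.52 in CNT cultures. These genes were picked from the plot of deviations after their values were seen.

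**Figure D4:**
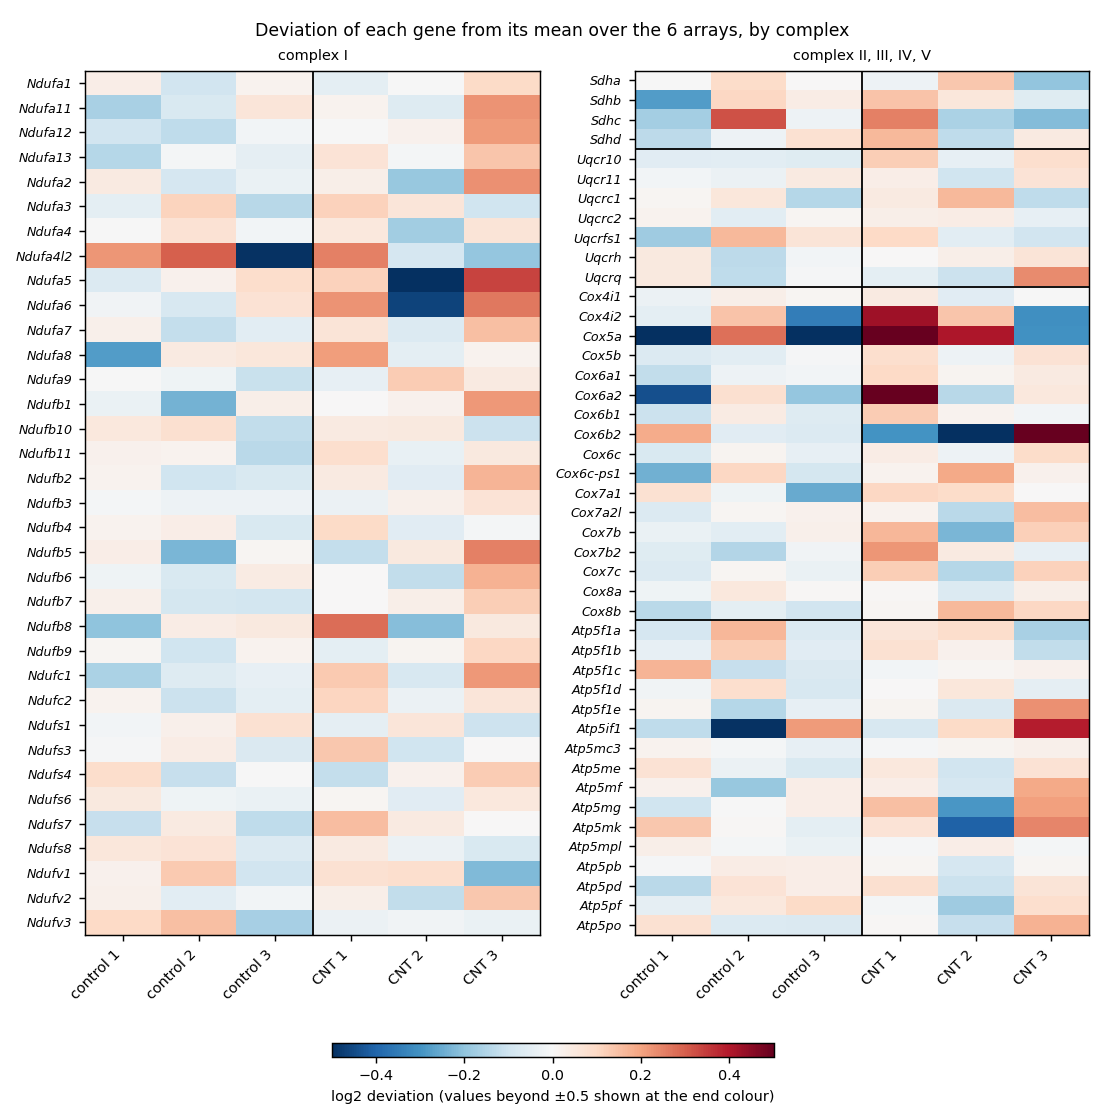
Deviation of each of the 79 genes (rows) from its own mean over the 6 arrays (columns), in log2 units from blue (lower) to red (higher), with complex I on the left and complexes II to V, divided by lines, on the right. The CNT 3 column is red for most of the complex I genes outside the core, the CNT 1 column for most of complex IV, and CNT 2 is blue for Ndufa5, Ndufa6 and Atp5mk.

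**Figure D5:**
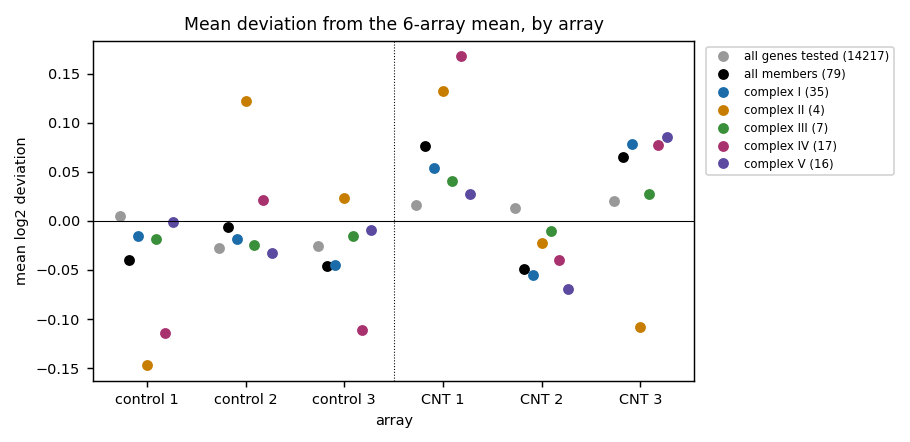
Mean log2 deviation on each array over all 14217 genes (grey), the 79 chain genes (black) and each complex (colours). The mean of the chain genes is 0.076 in CNT 1, −0.049 in CNT 2 and 0.065 in CNT 3, and between −0.046 and −0.006 in the controls.

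The arrays also differed in RNA measures. The beta-actin probe sets at the 3′ and the 5′ end of the transcript differed by 2.20, 0.62 and 0.66 log2 units in controls and by 0.92, 2.20 and 1.72 in CNT cultures. The GAPDH probe sets differed by 0.824, 0.177 and 0.216 in controls and by 0.217, 0.594 and 0.455 in CNT cultures. The hexokinase probe sets ordered the arrays otherwise, with differences of 3.27, 4.39 and 2.74 in controls and 3.85, 2.76 and 2.75 in CNT cultures. Control 1 and CNT 2, with the largest beta-actin and GAPDH differences, were left out together as an alternative chosen by the beta-actin measure. In the 2 cultures of each group that were left, 29 members were higher in CNT cultures without overlap (36.7%, against 15.3% of all genes) and 3 were lower (3.8%, against 6.2%). The median of the members was then 0.096 (all genes 0.035), and still no member was called. Without CNT 2 alone, 19 members did not overlap and were higher (24.1%, against 8.5%), and the median was 0.098. Scaling mattered too: once each array was centred on its median, which added 0.046 to every log2 fold change and shifted the median of all genes to 0.076, 14 members were higher without overlap (17.7%, against 10.1%) and 92.4% had a positive fold change (all genes 70.1%). The median of the members was then 0.090, which is 0.014 above that of all genes, as it also was without centring (0.014). The part of RNA quality in these values was not tested.

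Cell type markers varied between the same arrays. Stmn2, a gene of growing neurons, read between 10.25 and 10.94 on all arrays, whereas Snap25, another neuron gene, read between 8.31 and 10.62. Gfap, of astrocytes, read between 13.70 and 14.38, and Slc1a2, also of astrocytes, between 7.36 and 8.53. Single genes therefore do not stand for their cell type. The 8 neuron genes had a median log2 fold change of −0.153, with 2 positive and 6 negative. Their mean deviation was −0.063, −0.027 and 0.249 in controls and −0.111, −0.202 and 0.155 in CNT cultures. The 8 microglia and macrophage genes were all positive (median 0.186), with −0.631, 0.274 and −0.048 in controls and 0.376, 0.349 and −0.321 in CNT cultures. The 7 fibroblast genes had a median of −0.429 and the 6 smooth muscle genes one of −0.583. Both were lowest in CNT 2, at −0.795 and −0.925, the array in which the most chain genes had their lowest value. The 7 astrocyte genes (median −0.121) were lowest in CNT 3, at −0.393, and the oligodendrocyte and endothelial genes had medians of 0.037 and 0.049. The mean deviation of the 6 oligodendrocyte genes was −0.072, 0.358 and −0.451 in controls and 0.552, 0.312 and −0.699 in CNT cultures. No marker passed the adjusted test, and the part of cell composition in the values of the chain genes was not tested.

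The genes around the chain were described by lists. Of 14 genes for electron carriers and coenzyme Q synthesis, 6 were positive (median −0.016), and Coq5 and Cyc1 were higher in CNT cultures without overlap (14.3%, beside 5.94% of all genes). Cyc1, the cytochrome c1 of complex III, which the symbol rule does not take in, read 13.05, 12.98 and 12.97 in controls and 13.07, 13.20 and 13.07 in CNT cultures (0.11, SE 0.09). The mitochondrially encoded COX1 and COX2, subunits of complex IV, had log2 fold changes of −0.06 (SE 0.09) and −0.02 (SE 0.09). Their direction was thus opposite to that of most nuclear complex IV genes, at differences within the error. Both read between 14.52 and 14.73 on every array, near the highest mean of any gene tested, 14.77. Whether the scale could show a rise at that signal was not tested.

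Assembly factors, which insert cofactors and join subunits, had a median log2 fold change of 0.081 over 44 genes, with 34 positive and 3 higher without overlap (6.82%, beside 5.94% of all genes). Surf1, needed for the assembly of complex IV, read 10.54 on every control array and 10.68, 10.80 and 10.69 in CNT cultures (0.18, SE 0.09). Cox17, a copper chaperone, had a log2 fold change of 0.43 (SE 0.23) with overlapping groups. The mitochondrial ribosome, which translates the mitochondrially encoded subunits, had a median of 0.095 over 73 genes, with 62 positive (84.9%) and 14 higher without overlap (19.2%, beside the same 5.94%). Mrps18a read 11.87, 11.84 and 11.88 in controls and 12.05, 12.19 and 12.06 in CNT cultures (0.24, SE 0.09), and with Mrps11 it was one of the 2 genes under an unadjusted p of 0.05. Neither passed the adjusted test, and 2.41% of all genes lay higher under that unadjusted p.

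Upstream regulators showed no common direction. The biogenesis factors had a median of 0.01 over 18 genes. Esrra, the nuclear receptor whose motif was searched above, had a log2 fold change of 0.21 (SE 0.11), and Ppargc1a, its coactivator, one of −0.25 (SE 0.16), with overlapping groups for both. The tricarboxylic acid cycle and pyruvate dehydrogenase had a median of −0.011 over 16 genes, with Suclg2, of succinyl-CoA ligase, lower without overlap (−0.14, SE 0.10). For Suclg2, control 3 and CNT 1 both read 12.47 after rounding. Mitochondrial carriers and channels had a median of −0.047 over 17 genes, and Slc25a4, which exchanges ADP for ATP, was lower without overlap (−0.17, SE 0.10). For Slc25a4, control 3 read 13.69 and CNT 1 read 13.68. Of all genes, 2.05% were lower without overlap.

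Glycolysis, the other source of ATP, had a median of 0.062 over 19 genes, of which 4 were higher without overlap (21.1%, beside 5.94% of all genes). They were Slc16a3, Slc2a1 and the enzymes Pgk1 (0.15, SE 0.09) and Pgam1 (0.12, SE 0.09). Slc16a3, a lactate exporter, read 8.47, 9.06 and 9.79 in controls and 10.22, 10.39 and 11.09 in CNT cultures. All CNT cultures lay above all controls, and the log2 fold change of 1.46 (SE 0.39) had an unadjusted p of 0.00872 and an adjusted p of 0.999 by limma. Slc2a1, a glucose transporter, had a log2 fold change of 0.22 (SE 0.11), with control 1 and CNT 2 both at 11.24 after rounding. Slc2a3, the glucose transporter of neurons, had a log2 fold change of −0.55 (SE 0.32) with overlapping groups.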

How the data were processed

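Gene expression was measured in 3 control and 3 CNT cultures, with 1 array per culture. The authors deposited log2 expression values made with RMA for the manufacturer's probe sets (version not given in the sources used here), and these were used without further normalization. The study's own analysis used an EntrezGene-based probe annotation and the rank product. The sample records and the methods also differ in the RNA extraction kit. Of 31099 probe sets, 57 controls, 436 paired with several genes and 9780 paired with none were left out, and each of 14217 genes was represented by the probe set with the highest mean. Groups were taken from the sample titles. Limma 3.58.1 (R 4.3.3; lmFit, then eBayes) compared them without pairing, and p-values were adjusted by Benjamini-Hochberg for every gene of the array, with 0.05 as the threshold. The number of arrays limits the precision; 3 against 3 cannot go below a 2-sided exact p of 0.1.

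A group was called non-overlapping when all its values lay above, or all below, those of the other. Intervals are 95% and a change of 1.5-fold is 0.585 on the log2 scale. Values per array are given for the 3 members of smallest p and the highest and lowest fold change of each complex, all Sdh genes and isoform genes, and for up to 3 genes of each pathway list. The members and lists were chosen with earlier results of these data known. Alternatives covered normalization, the choice of probe set, a filter on the dimmest 30% of genes, array weights, RNA measures as covariates, single arrays left out, and the rank product. The script was tested on simulated data with 200 changed genes.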

Additional observations from a re-analysis of the deposited data

How the results depend on the processing

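No member was called under any limma alternative, and neither was any other gene of the array, apart from 2 genes without control 3. The rank product, run over 3 pairs of same-numbered arrays, also called no member. It placed Cox5a under an unadjusted p of 0.05, higher in CNT cultures, as it did for 729 of the 14217 genes. The same-numbered cultures did not deviate together in every pair (correlations of −0.127, 0.361 and 0.513, and control 2 went best with CNT 1, at 0.683), so the condition set for treating the numbers as pairs was not met for every pair. With the replicate number as a block, 0 members were called. The median stayed at 0.044 by construction, since a block in this balanced design leaves every log2 fold change unchanged. Under an unadjusted p of 0.05 lay 498 genes higher and 179 lower in CNT cultures, against 342 and 101 without the block. Under median centring the members without overlap numbered 14 and the median of complex III was 0.098. Without control 1 and CNT 2 they numbered 32, and the medians of all members and of complex I were 0.096 and 0.114. With single arrays left out, they numbered from 8 to 21, which fewer arrays allow by construction. Those higher in CNT cultures were 24.1% of the members without CNT 2 (8.5% of all genes), 13.9% without control 1 (11.6%), 13.9% without control 2 (10.1%), 11.4% without control 3 (12.9%), 10.1% without CNT 1 (11.1%) and 11.4% without CNT 3 (17%). The median of the members ran from 0.032 (without CNT 3) to 0.098 (without CNT 2), that of complex I from 0.035 to 0.097, that of complex II from −0.051 to 0.055, that of complex III from 0.014 to 0.069, that of complex IV from 0.064 to 0.126 and that of complex V from −0.008 to 0.047.

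The sign of several small fold changes turned. Ndufa4l2 became 0.042 with array weights, 0.024 with quantile normalization, 0.028 with median centring and 0.126 without control 1 and CNT 2. Cox7a2l became −0.008 with array weights. Median centring, which by construction raised every log2 fold change by 0.046, gave 0.009 for Ndufa4, 0.014 for Uqcrfs1, 0.039 for Cox4i1, 0.006 for Cox6b2 and 0.022 for Cox8a. The beta-actin difference as a covariate gave 0.034 for Sdhc, 0.045 for Uqcrfs1 and 0.014 for Cox4i1. Without control 1 and CNT 2, Ndufa4 became 0.03, Sdhb −0.031, Cox4i1 0.002 and Cox6b2 0.495. With single arrays left out the values ran from −0.079 to 0.04 for Ndufa4, −0.268 to 0.128 for Ndufa4l2, −0.142 to 0.024 for Sdha, −0.025 to 0.167 for Sdhb, −0.226 to 0.058 for Sdhc, −0.015 to 0.129 for Sdhd and also for Uqcrc1, −0.129 to 0.042 for Uqcrfs1, −0.032 to 0.019 for Cox4i1, −0.002 to 0.364 for Cox4i2, −0.631 to 0.412 for Cox6b2, −0.045 to 0.1 for Cox7a2l, −0.043 to 0.005 for Cox8a and −0.128 to 0.003 for Atp5pf. For settings other than centring the cause was not tested. An unadjusted p under 0.05 appeared for Cox5a with array weights, without control 2 and without CNT 3, for Atp5if1 with the mean of its probe sets, for Cox6a2 with the beta-actin covariate, and for Cox6b2, lower, without CNT 3. Of the 14217 genes, those under that p and higher numbered 532 with array weights, 195 without control 2 and 515 without CNT 3. They numbered 329 with the mean of probe sets and 325 with the beta-actin covariate, and 412 genes were lower without CNT 3. With 3 arrays per group and no detection calls in the deposited values, whether dim members such as Cox8b and Cox4i2 lay above background was not tested.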
